A study of Mus musculus with 3 samples.

Results

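The collagen genes of the embryonic mouse thymus were followed as a family. They were taken by name alone, as every gene whose symbol is Col, a number, the letter a and a second number, and this gave 44 of the 27998 genes measured. By the type of collagen that they build, 8 were fibrillar, 7 were cartilage collagens, 9 belonged to basement membranes, 6 were FACIT collagens, which sit on the surface of fibrils, 6 formed beaded filaments, 2 formed networks, 4 were transmembrane collagens and 2 were of no such type (*Col26a1* and *Col28a1*). Thymic lobes were taken between days 13 and 13.5 of gestation from C57BL/6 embryos, dissociated and measured as single cells in 3 droplet libraries, 1 for each genotype. The control library was wild type. The second was labelled Tbx1neo2/neo2, homozygous for an allele of the transcription factor gene *Tbx1* that carries a neomycin cassette in an intron. The third was Foxn11089/1089, homozygous for an allele with a small deletion in *Foxn1*, the transcription factor that thymic epithelium needs. Both are germline alleles, so all cells of a lobe and of the tissue cut out with it carried them. How many embryos went into each library is not given in the sources used here.

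With 1 library for each genotype no difference could be set against a spread between replicates, so no test was made. The intervals below are exact 95% intervals that cover counting error only. Both mutant libraries were compared with the same control library.

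Collagens are secreted or membrane proteins built of 3 alpha chains wound into a triple helix. Collagen I, made of the *Col1a1* and *Col1a2* chains, and collagen III, made of *Col3a1*, form the fibrils of loose connective tissue, and collagen V (*Col5a1*, *Col5a2*) sits inside those fibrils. Collagen IV makes the sheets of basement membranes under epithelia and around vessels, where collagens XV and XVIII are attached to it, and collagen VI makes fine beaded filaments around cells. In the thymus of this age a capsule of mesenchyme surrounds the epithelium and vessels begin to enter it. The cartilages of the neck and throat form close by, and there collagens II, IX and XI make the fibrils.

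Several collagen chains that assemble with each other are coded by neighbouring genes. In the GENCODE M21 annotation of GRCm38, the build on which the counts were made, *Col1a1* spans chr11:94936224-94953042 (plus strand), *Col1a2* chr6:4504814-4541544 (plus strand), *Col3a1* chr1:45311538-45349706 (plus strand), *Col5a2* chr1:45374321-45503282 (minus strand) and *Col9a1* chr1:24177610-24252684 (plus strand). The genes *Col4a1* and *Col4a2* lie head to head on chromosome 8 with annotations that overlap by 22 bases, *Col4a3* and *Col4a4* lie head to head on chromosome 1 with 71 bases between them, and *Col4a5* and *Col4a6* on chromosome X with 1308 bases between them. *Col3a1* and *Col5a2* point at each other on chromosome 1 with 24614 bases between them. Short RefSeq stretches at or near the starts of these genes are given here because the results turn on the levels of *Col1a2* against *Col1a1*, of *Col3a1* against *Col1a1*, and of *Col4a1* with *Col4a2*. The *Col1a2* stretch is chr6:4505370-4505492 on the plus strand and ends 125 bases before the RefSeq start, which lies farther downstream than the GENCODE one, so that the stretch falls inside the GENCODE span given above but in none of its exons. The *Col3a1* stretch is chr1:45311288-45311537 on the plus strand and ends at the RefSeq start. The third is the 22 bases that the *Col4a1* and *Col4a2* annotations share, chr8:11312805-11312826, written along the plus strand. All are from GRCm38.p6, and capitals mark a GC box (GGGCGG) in the first and the third and a TATA motif (TATAAA) in the second.
*Col1a2*: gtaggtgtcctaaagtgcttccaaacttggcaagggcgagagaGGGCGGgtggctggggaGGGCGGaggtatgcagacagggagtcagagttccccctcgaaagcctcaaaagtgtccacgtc
*Col3a1*: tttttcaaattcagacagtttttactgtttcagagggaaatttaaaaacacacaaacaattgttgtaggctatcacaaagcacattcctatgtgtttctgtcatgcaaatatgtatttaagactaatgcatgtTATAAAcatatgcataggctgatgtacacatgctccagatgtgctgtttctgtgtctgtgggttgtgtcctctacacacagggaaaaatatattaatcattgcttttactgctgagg
*Col4a1* and *Col4a2*: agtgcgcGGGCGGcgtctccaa
The printed *Col1a2* stretch held 2 GC boxes, the *Col3a1* stretch 1 TATA motif and the stretch shared by *Col4a1* and *Col4a2* 1 GC box. RefSeq promoter windows, each 250 bases before to 50 bases after a start, were matched to 35 of the 44 collagens (38 windows). Searched on both strands, 23 of these 38 windows held GGGCGG, which stood in 35.7% of all 32851 windows, 5 held TATAAA against 13.6% of all windows, and 13 held CCAAT against 37.4%. These matches describe the letters only.

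The control library held 5932 kept cells, the library labelled Tbx1neo2/neo2 5516 and the Foxn11089/1089 library 11772, with medians of 13410, 20732.5 and 14652 UMIs per cell, where a UMI is 1 captured mRNA molecule. The libraries shared between 17 and 28 cell barcodes. Over all kept cells *Tbx1* was at 1.39, 4.81 and 5.43 counts per 1000000 UMIs (CPM) and *Foxn1* at 38.4, 34.6 and 76.5 in the order control, labelled Tbx1neo2/neo2 and Foxn11089/1089, and all sets of 3 values below keep this order. Neither targeted gene was therefore lower in its own mutant library. The neo2 allele is known to lower *Tbx1* mRNA, so the *Tbx1* level goes against the label of that library. That library is called by its label here for this reason, and every direction given for it rests on that label. *Tbx1* was also above the control in the Foxn11089/1089 library, and the authors state that the embryonic thymus does not express it. A level over all kept cells therefore cannot decide whether the label is right. The *Foxn1* allele leaves the counted 3′ end in place, so the *Foxn1* level does not check the label Foxn11089/1089.

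Cells were sorted into classes by marker genes, none of them a collagen. Fibroblasts carried *Pdgfra* (958, 1275 and 2420 cells), mural cells of vessels carried *Acta2* with *Rgs5* (20, 119 and 12 cells), and endothelial, epithelial and hematopoietic cells carried *Cdh5* (47, 92 and 75 cells), *Epcam* (2105, 823 and 3879) and *Ptprc* (842, 186 and 285) without markers of the other classes. Cells with at least 20% hemoglobin UMIs and no such marker (344, 337 and 1838), red blood cells, show roughly how much collagen RNA reaches a droplet from outside. The 5 red blood cell markers, mostly hemoglobin genes, summed to 471046, 476960 and 547127 CPM in them. A level of free RNA given in CPM is therefore a share of a total rich in hemoglobin and not a count per droplet. The 6 fibroblast markers summed to 2222, 2108 and 2603 CPM in fibroblasts and 24.00, 39.5 and 63.8 CPM in epithelial cells, 8 mural markers reached 5727, 8957 and 12321 CPM in mural cells with *Des* at 0 in the Foxn11089/1089 library. In their own classes the endothelial markers reached 2396, 3587 and 2747 CPM, the epithelial markers 3836, 4285 and 2391 CPM and the hematopoietic markers 2190.1, 2158 and 2838 CPM. The cells of no class were 27.2%, 48.7% and 27.7% of kept cells, with medians of 9665.5, 1792.5 and 10333 UMIs. The mural class of the control library rests on 20 cells and that of the Foxn11089/1089 library on 12.

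Collagen transcripts were most abundant in fibroblasts. All 44 genes together made up 0.701, 0.996 and 0.610% of fibroblast UMIs, 0.372, 0.487 and 0.517% of mural UMIs, 0.197, 0.261 and 0.202% of endothelial UMIs and 0.0354, 0.0682 and 0.0576% of epithelial UMIs. In hematopoietic cells they summed to 97.7, 129 and 105 CPM and in red blood cells, the level of free RNA, to 27.8, 61.02 and 79.02 CPM. The 6 sets of cells kept this order in all 3 libraries. Levels of different genes are compared here as UMIs, which are counted at the 3′ end and do not grow with the length of the transcript.

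The mix of collagen types set the classes apart. Fibrillar collagens held 84.9, 82.5 and 83.3% of the collagen UMIs of fibroblasts and 72.5, 75.2 and 70.8% of those of mural cells. Basement membrane collagens held 95.7, 69.6 and 93.6% of the collagen UMIs of endothelial cells and 67.7, 52.1 and 43.9% of those of epithelial cells. The mix also differed between libraries in these last classes: fibrillar collagens took 2.82, 24.7 and 4.69% of endothelial collagen UMIs, and cartilage collagens took 6.98, 9.29 and 22.1% of epithelial ones, the highest share being in the Foxn11089/1089 library.

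**Figure D1:**
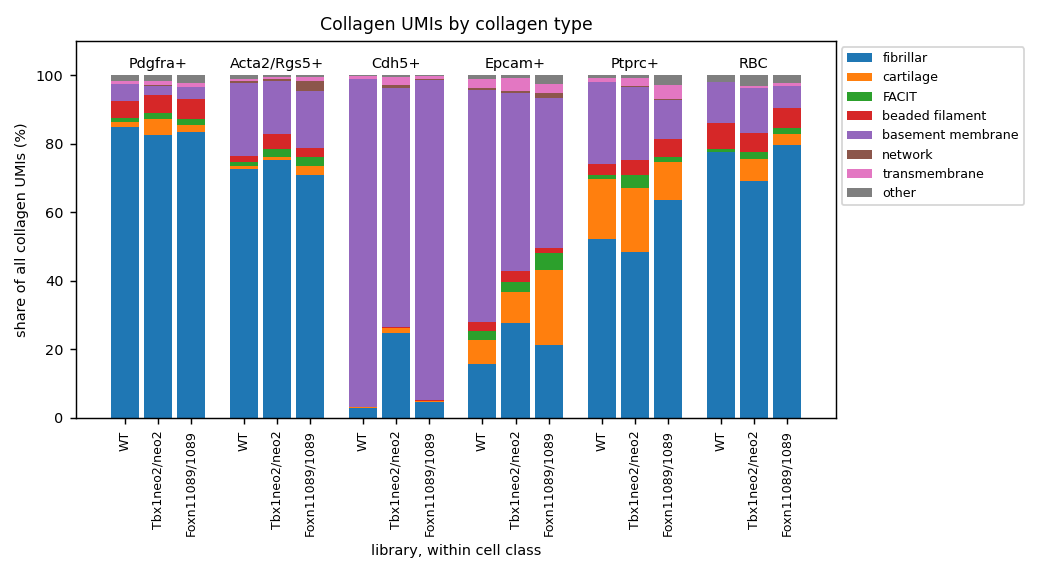
Share of all collagen UMIs (vertical axis, percent) taken by each collagen type (colours) in each library (bars) within each cell class; RBC are red blood cells, which carry free RNA. Fibrillar collagens fill most of the *Pdgfra*+ and *Acta2*/*Rgs5*+ bars and basement membrane collagens most of the *Cdh5*+ bars, at 95.7, 69.6 and 93.6%.

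Of the 44 genes, 35 had at least 30 UMIs over the 5 classes in each library, and 22 of these had their highest level in the same class in all 3 libraries. Fibroblasts were that class for 14 genes: *Col1a1*, *Col1a2*, *Col3a1*, *Col5a1* and *Col5a3* of the fibrillar collagens, *Col6a1*, *Col6a2*, *Col6a3* and *Col6a6* of the beaded filaments, and *Col4a5*, *Col8a2*, *Col11a1*, *Col25a1* and *Col26a1*. Endothelial cells were highest for 4 genes, *Col4a1*, *Col4a2*, *Col15a1* and *Col18a1*. Epithelial cells were highest for 3, *Col4a4*, *Col4a6* and *Col19a1*, and mural cells for 1, *Col27a1*, which was close to its fibroblast level in the first 2 libraries. The other 13 did not have the same highest class in all 3 libraries. The highest class is the largest CPM whatever its counting error, and mural values rest on few UMIs. All cartilage collagens had 8 UMIs in the 20 control mural cells. All transmembrane collagens had 7 in the 12 of the Foxn11089/1089 library. A change of highest class is therefore not read as a difference between genotypes.

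**Figure D2:**
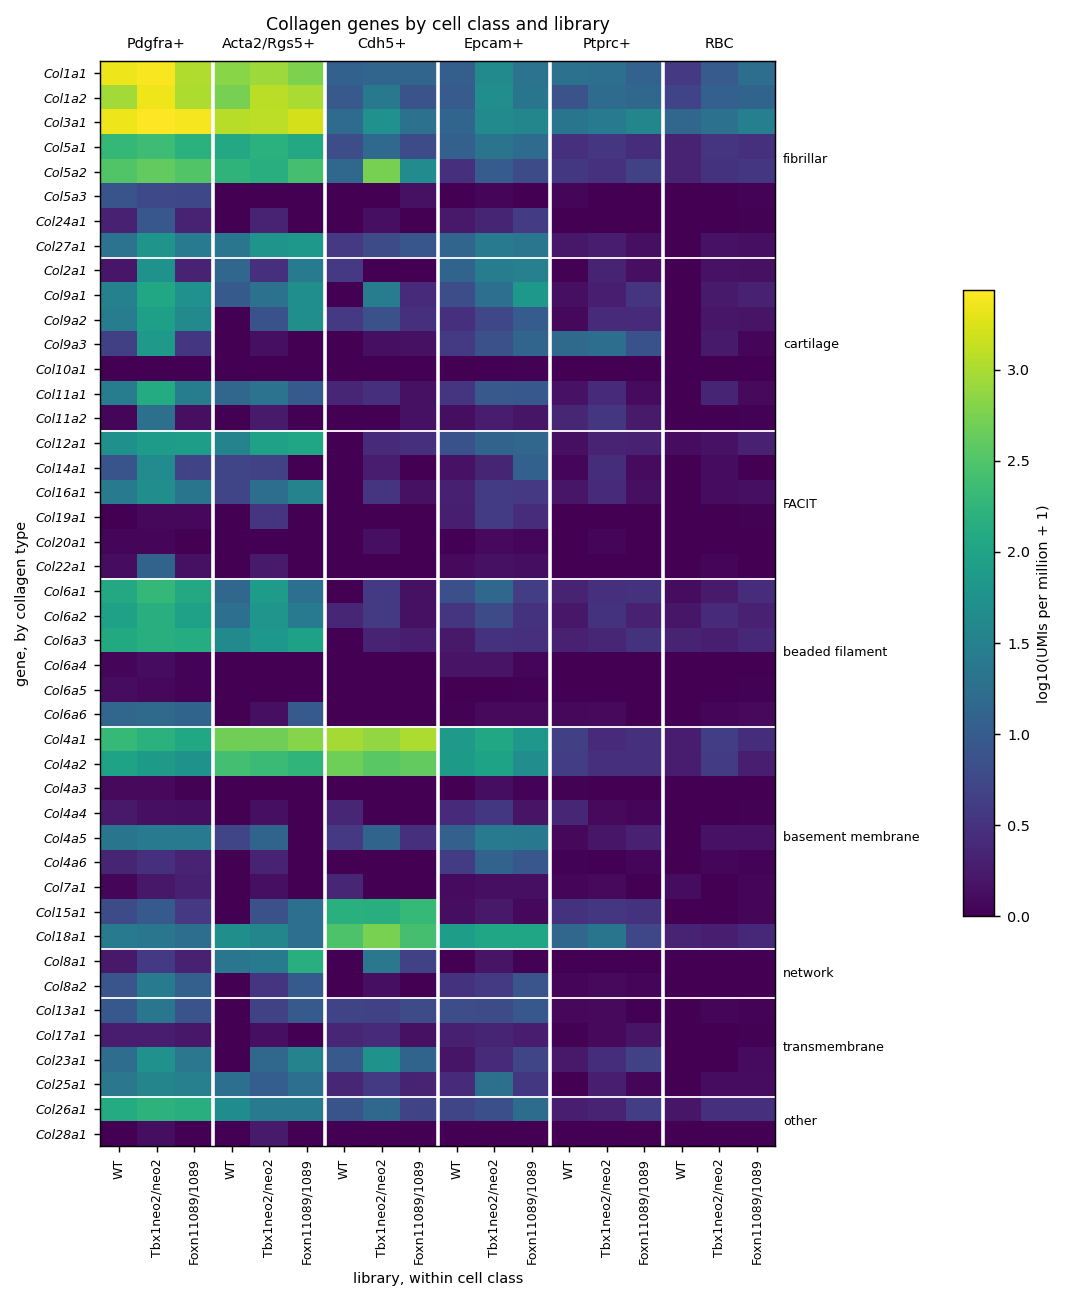
Level of each of the 44 collagen genes (rows, grouped by collagen type) in each library (columns) within each cell class, as log10 of CPM plus 1; dark is low and yellow is high. The brightest cells are *Col1a1*, *Col1a2* and *Col3a1* in *Pdgfra*+ cells, and *Col5a2* is bright in the *Cdh5*+ column of the library labelled Tbx1neo2/neo2 (534 CPM) and not in that of the control (13.5 CPM).

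In fibroblasts, *Col3a1* was at 2266, 2731 and 2457 CPM and *Col1a1* at 2235, 2540.2 and 1068 CPM, and they were the most abundant pair in the control. *Col1a2*, the second chain of collagen I, was at 909, 2233 and 1045 CPM. *Col1a2* was thus far below *Col1a1* in the control and close to it in both mutant libraries, by a higher *Col1a2* in the library labelled Tbx1neo2/neo2 and a lower *Col1a1* in the Foxn11089/1089 library. Of the collagen V chains, *Col5a2* was at 322, 408 and 319 CPM and *Col5a1* at 194, 235 and 158 CPM. Next came *Col4a1* at 199.6, 155 and 110.1 CPM, *Col26a1* at 130.2, 165 and 145 CPM and the collagen VI chains *Col6a3* at 122, 143 and 135 CPM, *Col6a1* at 119, 195 and 118 CPM and *Col6a2* at 90.7, 147 and 92.8 CPM. *Col4a2* was at 98.9, 73.9 and 56.9 CPM. These were the most abundant collagens of control fibroblasts.

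Against the control, the fibroblasts of the library labelled Tbx1neo2/neo2 held 15 of 35 measurable collagens at least 2-fold higher and 0 at least 2-fold lower, where a gene was measurable with at least 30 UMIs in the 2 compared libraries together. Among all 13397 measurable genes 18.4% were at least 2-fold higher and 3.67% at least 2-fold lower. The median of all genes was itself shifted by a log2 ratio of 0.41, and the median of the collagens was 0.71. The collagens past the fold were 6 of 6 cartilage collagens, 3 of 8 fibrillar collagens (*Col1a2*, *Col24a1*, *Col27a1*), 2 of 4 FACIT collagens (*Col14a1*, *Col22a1*), 2 of 2 network collagens (*Col8a1*, *Col8a2*) and 2 of 4 transmembrane collagens (*Col13a1*, *Col23a1*). None of 6 basement membrane collagens and none of 4 beaded filament collagens was among them.

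*Col1a2* was the abundant gene in this list, at a log2 ratio of 1.30 (1.26 to 1.33), with the interval in parentheses, while *Col1a1* was at 0.18 (0.16 to 0.21) and *Col3a1* at 0.27 (0.25 to 0.29). Relative to the median of all genes, 14 collagens were at least 2-fold above it and 0 at least 2-fold below it, against 9.21% and 9.36% of all genes. By that measure *Col1a2*, 0.89 above the median, was not past the fold, and *Col1a1*, *Col3a1*, *Col5a1*, *Col5a2* and *Col6a3* lay below that median although their ratios to the control were above 0. The collagen VI chains *Col6a1* and *Col6a2* were close to each other, at log2 ratios of 0.71 and 0.69. The lowest ratios among collagens with at least 100 UMIs were those of *Col5a3* at -0.53 (-0.95 to -0.09), *Col4a2* at -0.42 (-0.53 to -0.31), *Col4a1* at -0.36 (-0.44 to -0.28) and *Col18a1* at -0.22 (-0.43 to 0.00). With clusters in place of the marker class the ratios of *Col4a1*, *Col4a2* and *Col18a1* turned to 0.41, 0.19 and 0.04, and that of *Col1a1* to -0.04. The *Col1a2* UMIs of the library labelled Tbx1neo2/neo2 were uneven between cells: the 10% of fibroblasts with most of them held 42.9%, and 1 cell held 3696. With each cell weighted equally the log2 ratio of *Col1a2* was 1.03.

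The 2 largest ratios belonged to the cartilage collagens *Col11a2* and *Col2a1*. *Col2a1*, the main cartilage collagen, was at 0.625, 56.1 and 1.21 CPM, a log2 ratio of 6.49 (5.36 to 7.94) for the library labelled Tbx1neo2/neo2. *Col11a2* was at 0.104, 17.6 and 0.365 CPM (log2 ratio 7.40, 4.91 to 12.71), from 1 UMI in the control, and its partner *Col11a1* was at 26.7, 129 and 27.4 CPM (log2 ratio 2.27, 2.09 to 2.46). The 3 chains of collagen IX did not move equally: *Col9a3* was at 3.54, 70.6 and 2.47 CPM (log2 ratio 4.32, 3.83 to 4.85), *Col9a1* at 31.1, 111 and 53.2 CPM (log2 ratio 1.83, 1.66 to 2.01) and *Col9a2* at 27.7, 86.3 and 42.8 CPM (log2 ratio 1.64, 1.46 to 1.83). *Col9a1* and *Col9a2* were thus present in control fibroblasts, where *Col2a1*, *Col9a3* and *Col11a2* were at 3.54 CPM or less.

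The summed markers of cartilage cells were also highest in the library labelled Tbx1neo2/neo2. The 5 of 6 listed cartilage markers found in the files (*Acan*, *Matn1*, *Hapln1*, *Sox9*, *Matn4*) summed to 44.7, 203 and 63.1 CPM in fibroblasts, with *Acan* and *Matn1* at 0 in the control and *Matn1* at 0 in the library labelled Tbx1neo2/neo2. *Sox9* made the largest part of the sum in each library. *Matn4* had 68, 1759 and 598 UMIs in fibroblasts, *Acan* 0, 31 and 1 and *Matn1* 0, 0 and 1. Cells picked by these genes, called cells with cartilage markers below, therefore rest almost wholly on *Matn4*. Fibroblasts with at least 2 UMIs of *Acan*, *Matn4* and *Matn1* together numbered 9, 203 and 116. They differed between libraries: *Col2a1* had 0 UMIs in the 9 of the control and 0 in the 116 of the Foxn11089/1089 library. In those 116 cells *Col9a1* was at 22.7 CPM against 55.1 CPM in the other fibroblasts of that library, and *Col9a2* at 25.1 against 43.9 CPM. The 203 such cells of the library labelled Tbx1neo2/neo2, 15.9% of its fibroblasts, held 91.4% of the *Col2a1* UMIs and 77.6% of the *Col9a3* UMIs of the class. They held 39.4% of *Col9a1*, 42.1% of *Col9a2*, 22.1% of *Col11a1* and 15.4% of *Col11a2*. In the remaining fibroblasts of that library *Col2a1* was at 5.77 CPM and *Col9a3* at 19.03 CPM, both still above the control, and *Col11a1* was at 120.4 CPM. Collagen I was lower in the cells with cartilage markers, where *Col1a1* was at 891 CPM against 2872 CPM in the others. Without all fibroblasts that carried UMIs of cartilage, muscle, glia or thyroid markers, the log2 ratio of *Col9a3* was 0.66 and that of *Col2a1* was 2.47. This left 795 of 958, 569 of 1275 and 1608 of 2420 fibroblasts, so most of the class was removed in the library labelled Tbx1neo2/neo2.

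Other collagens past the fold had most of their UMIs outside those cells. *Col14a1*, a FACIT collagen of dense connective tissue, was at 6.87, 43.9 and 4.01 CPM (log2 ratio 2.68, 2.32 to 3.05) with 5.93% of its UMIs in cells with cartilage markers. *Col22a1*, known from junctions of muscle with tendon, was at 0.312, 11.5 and 0.421 CPM (log2 ratio 5.20, 3.64 to 7.48), with 0.822% of its UMIs in such cells. The fibrillar collagen *Col24a1* was at 1.04, 7.62 and 1.12 CPM (log2 ratio 2.87, 1.97 to 3.95), and *Col27a1*, another fibrillar collagen of cartilage and other tissues, was at 19.6, 58.98 and 26.2 CPM (log2 ratio 1.59, 1.37 to 1.82), with 31.2% in such cells. The network collagens *Col8a1* and *Col8a2*, known from the eye and from vessel walls, were at log2 ratios of 1.97 (0.87 to 3.32) and 1.86 (1.50 to 2.24). Skeletal muscle markers summed to 22.3, 34.95 and 20.5 CPM and glia markers to 3.54, 18.8 and 5.16 CPM in fibroblasts, and their part in these ratios was not tested.

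In fibroblasts of the Foxn11089/1089 library, 1 of 34 measurable collagens was at least 2-fold higher and 1 at least 2-fold lower, against 6.21% and 4.18% of all 13057 measurable genes. The collagen median was 0.04 where the median of all genes was 0.21. The gene past the fold in the lower direction was *Col1a1*, the most abundant chain of collagen I, at a log2 ratio of -1.07 (-1.09 to -1.04). *Col1a2* at 0.20 (0.17 to 0.23) and *Col3a1* at 0.12 (0.10 to 0.14) were not lower with it. The gene past the fold in the higher direction, *Col7a1*, the anchoring fibril collagen, rested on 1 UMI in the control and 36 in the Foxn11089/1089 library. Without fibroblasts carrying markers of other tissues the ratio of *Col1a1* was -0.93.

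Next to *Col1a1* the lowest ratios in the Foxn11089/1089 library were those of 3 basement membrane collagens and a FACIT collagen. *Col15a1* was at -0.94 (-1.45 to -0.41), *Col4a1* at -0.86 (-0.94 to -0.78) and *Col4a2* at -0.80 (-0.91 to -0.69) on the log2 scale, none of them past the fold, and the FACIT collagen *Col14a1* was at -0.78 (-1.21 to -0.33). When set against the median of all genes, 1 collagen (*Col7a1*) lay at least 2-fold above and 4 (*Col1a1*, *Col4a1*, *Col4a2*, *Col15a1*) at least 2-fold below, against 3.5% and 6.4% of all genes. The highest with at least 100 UMIs were *Col9a1* at 0.77 (0.60 to 0.95), *Col9a2* at 0.63 (0.44 to 0.82) and *Col12a1*, which binds collagen I fibrils, at 0.60 (0.46 to 0.73). The ratios of *Col2a1*, 0.95 (-0.29 to 2.47), and *Col9a3*, -0.52 (-1.11 to 0.10), had intervals that include 0 in the Foxn11089/1089 library, where the 116 fibroblasts with UMIs of those markers, 4.79% of the class, held none of the *Col2a1* UMIs.

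The remaining collagens of fibroblasts were less abundant. Among the FACIT collagens *Col12a1* was at 52.8, 76.1 and 79.7 CPM and *Col16a1* at 25.4, 46.9 and 20.7 CPM, while *Col19a1* was at 0, 0.188 and 0.168 CPM. Among the transmembrane collagens *Col25a1* was at 22.2, 35.9 and 30.4 CPM, *Col23a1* at 16.1, 54.4 and 22.4 CPM and *Col13a1* at 7.70, 21.3 and 6.65 CPM. The last 2 were at least 2-fold higher in the library labelled Tbx1neo2/neo2, with log2 ratios of 1.75 (1.52 to 2.0) and 1.47 (1.12 to 1.84), and *Col25a1* was at 0.70 (0.48 to 0.91). Of the basement membrane collagens, *Col4a5* was at 20.6, 25.3 and 24.1 CPM, *Col18a1* at 24.99, 21.5 and 16.4 CPM and *Col15a1* at 5.10, 8.35 and 2.67 CPM. The third chain of collagen V, *Col5a3*, was at 6.87, 4.77 and 4.63 CPM, the beaded filament chain *Col6a6* at 12.8, 14.5 and 11.7 CPM and the network collagen *Col8a2* at 6.98, 25.3 and 10.4 CPM. *Col6a6*, *Col5a3* and *Col4a5* did not differ between libraries by 2-fold.

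**Figure D3:**
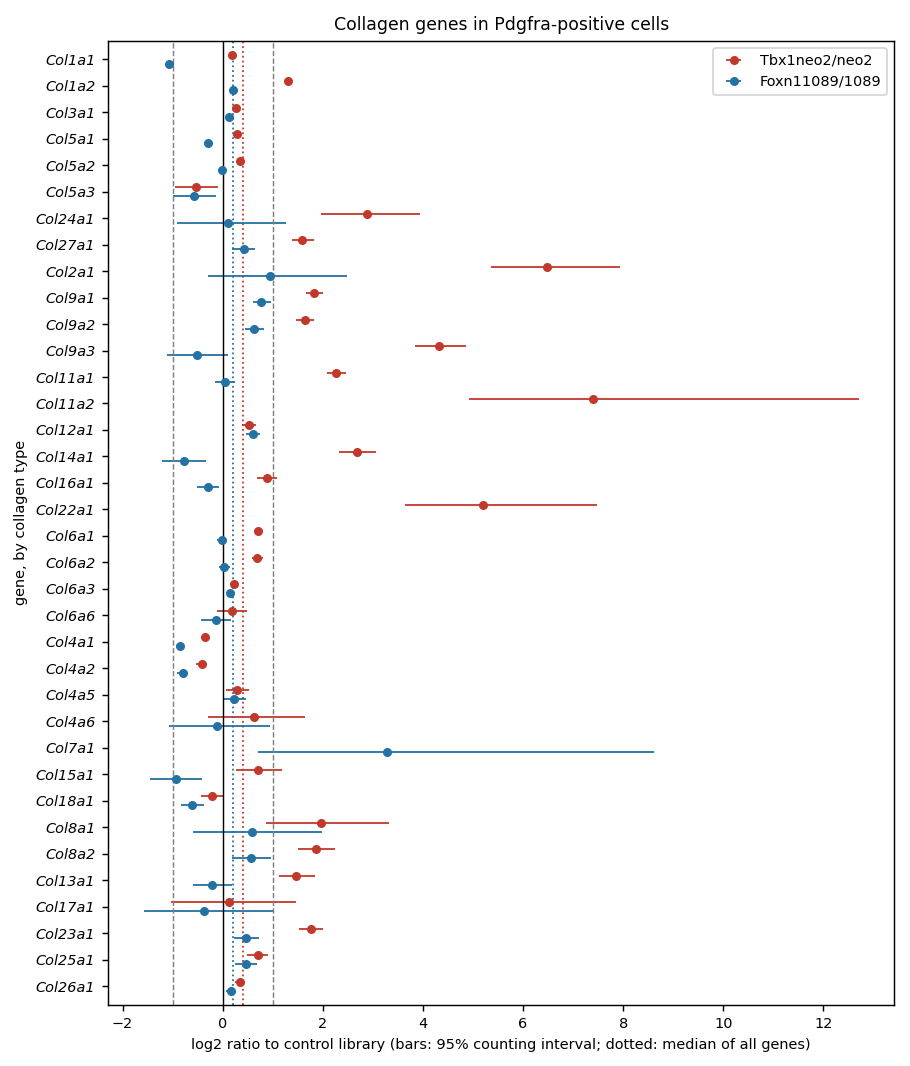
Log2 ratio of each collagen in *Pdgfra*-positive cells to the control library (horizontal axis) for each mutant library, with 95% counting intervals as bars, the 2-fold limits as dashed lines and the median of all genes as dotted lines. *Col11a2* and *Col2a1* of the library labelled Tbx1neo2/neo2 lie farthest right, at 7.40 and 6.49, and *Col1a1* of the Foxn11089/1089 library lies at -1.07; *Col1a1* and *Col3a1* of the library labelled Tbx1neo2/neo2 lie right of 0 and left of its dotted line.

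Mural cells carried the fibroblast pattern with more collagen IV. *Col3a1* was at 1179, 1260.3 and 1647 CPM, *Col1a1* at 674, 850.2 and 577 CPM and *Col1a2* at 539, 1189 and 986 CPM. *Col4a1* was at 484, 487 and 652 CPM, 2.43, 3.14 and 5.92 times its fibroblast level, and *Col4a2* at 253, 216 and 176 CPM, 2.55, 2.92 and 3.09 times that of fibroblasts. Mural cells thus lay between fibroblasts and endothelial cells for both chain genes of collagen IV in all 3 libraries. The network collagen *Col8a1*, known from vessel walls, was at 21.1, 24.3 and 142 CPM from 5, 64 and 17 UMIs, which was above its fibroblast level of 0.729, 2.86 and 1.09 CPM in each library.

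In mural cells of the library labelled Tbx1neo2/neo2, 8 of 20 measurable collagens were at least 2-fold higher and 0 at least 2-fold lower, against 24.6% and 3.98% of all 8116 measurable genes. With at least 100 UMIs the highest ratios were those of *Col6a1* at 2.60 (1.03 to 4.89) and *Col6a2* at 1.88 (0.49 to 3.77) on the log2 scale, with *Col27a1* at 1.50 (0.25 to 3.14), *Col12a1* at 1.43 (0.43 to 2.66) and *Col1a2* at 1.14 (0.89 to 1.41). *Col4a5*, *Col9a1* and *Col16a1*, from fewer UMIs, were the others past the fold. The lowest with at least 100 UMIs were *Col18a1* at -0.44 (-1.31 to 0.56), *Col5a2* at -0.23 (-0.70 to 0.28) and *Col4a2* at -0.23 (-0.61 to 0.18), and all 3 intervals include 0. The collagen median was 0.51 and that of all genes 0.35. Relative to the median of all genes, 6 collagens were at least 2-fold above it and 1 (*Col26a1*) at least 2-fold below it, against 16.5% and 10.2% of all genes. Skeletal muscle markers summed to 0, 638 and 8.36 CPM in mural cells, with all 6 at 0 in the control and 5 of 6 at 0 in the Foxn11089/1089 library. The 14 of 119 mural cells of the library labelled Tbx1neo2/neo2 with at least 2 UMIs of *Myod1*, *Myog*, *Actc1*, *Myl1* and *Myf5* held 48.02% of the *Col6a1* and 57.7% of the *Col6a2* UMIs. With each cell weighted equally the ratio of *Col6a1* was 0.56, and without cells carrying markers of other tissues that of *Col6a2* was 0.40.

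In mural cells of the Foxn11089/1089 library, 0 of 7 measurable collagens was past 2-fold in either direction, against 10.9% higher and 9.15% lower among 1694 measurable genes. *Col1a2* was at 0.87 (0.50 to 1.24), *Col3a1* at 0.48 (0.21 to 0.75), *Col4a1* at 0.43 (0.00 to 0.86) and *Col1a1* at -0.22 (-0.65 to 0.19). Only 7 of the 44 members were measurable in the 12 cells of this library and the 20 of the control. The collagen median of 0.43 stood beside -0.01 for all genes. When set against the median of all genes, 0 collagens lay at least 2-fold above and 0 at least 2-fold below, against 12.3% and 8.97% of all genes.

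Endothelial cells held the highest levels of the vessel basement membrane collagens. *Col4a1* was at 951, 749 and 1019 CPM, or 4.76, 4.82 and 9.26 times its level in fibroblasts. *Col4a2* was at 477, 364 and 404 CPM, or 4.83, 4.92 and 7.10 times its level in fibroblasts. *Col18a1*, from whose end the fragment endostatin is cut, was at 302, 547 and 263 CPM, and its relative *Col15a1* at 149, 143 and 199 CPM. Against fibroblasts *Col15a1* was 29.2, 17.2 and 74.6 times and *Col18a1* 12.1, 25.4 and 16.00 times the fibroblast level. After thinning every cell to 2000 UMIs, 27.9, 13.6 and 27.1% of endothelial cells had a *Col15a1* UMI, and unthinned 76.6, 28.3 and 81.3% of 47, 92 and 75 cells, against 0, 0 and 0.0547% of red blood cells thinned and 0, 0 and 0.163% unthinned.

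Against the control, endothelial cells of the library labelled Tbx1neo2/neo2 had 8 of 14 measurable collagens at least 2-fold higher and 0 at least 2-fold lower, against 25.6% and 4.71% of all 8467 measurable genes. The collagen median was 1.45 and that of all genes 0.40. Relative to the median of all genes, 7 collagens were at least 2-fold above it and 0 at least 2-fold below it, against 15.4% and 11.6% of all genes. By type, 4 of 5 measurable fibrillar collagens and 1 of 5 basement membrane collagens were at least 2-fold higher.

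*Col5a2*, a chain of collagen V, had the highest ratio. It had 10, 1320 and 108 UMIs, 13.5, 534 and 44.03 CPM, and a log2 ratio of 5.30 (4.42 to 6.37) for the library labelled Tbx1neo2/neo2 and 1.70 (0.77 to 2.80) for the Foxn11089/1089 library. Its partner chain *Col5a1* was at 5.41, 13.8 and 5.30 CPM. In the library labelled Tbx1neo2/neo2 *Col5a2* was higher in endothelial cells than in fibroblasts, at 1.31 times the fibroblast level. *Col23a1*, a transmembrane collagen, was at 8.11, 55.8 and 11.8 CPM (log2 ratio 2.78, 1.62 to 4.25). *Col3a1* was at 1.87 (0.98 to 2.90), *Col1a2* at 1.56 (0.35 to 3.06), *Col5a1* at 1.35 (-0.14 to 3.30) and *Col4a5* at 2.12 (0.13 to 5.23). *Col8a1* and *Col9a1*, without a UMI in control endothelial cells, were higher by a log2 ratio of at least 2.46 and at least 2.76, set against 3 counts, the limit that a count of 0 allows.

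The share of endothelial cells with a *Col5a2* UMI followed the level. At 2000 UMIs per cell it was 0, 61.7 and 12.9% in 43, 81 and 70 cells, with 4, 11 and 5 shallower cells left out, where the 0 of the control allows up to 6.98%, and in all cells it was 21.3, 76.1 and 52.0%. Red blood cells had 0.310, 0.301 and 0.492% at the same depth, below the share of endothelial cells in both mutant libraries. The median depths were 16927, 19025.5 and 26664 UMIs in endothelial cells and 8053, 18371 and 12354.5 in red blood cells. Mural markers summed to 12.2, 144 and 8.56 CPM, skeletal muscle markers to 8.11, 74.05 and 11.8 CPM, epithelial markers to 16.2, 76.1 and 13.5 CPM and fibroblast markers to 2.70, 33.2 and 20.8 CPM in endothelial cells, all highest in the library labelled Tbx1neo2/neo2. Their part in the ratios was not tested.

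The vessel basement membrane collagens were not past 2-fold in either mutant library. For the library labelled Tbx1neo2/neo2 the log2 ratios were -0.34 (-0.47 to -0.22) for *Col4a1*, -0.39 (-0.57 to -0.21) for *Col4a2*, -0.05 (-0.37 to 0.27) for *Col15a1* and 0.86 (0.65 to 1.07) for *Col18a1*. For the Foxn11089/1089 library they were 0.10 (-0.02 to 0.22), -0.24 (-0.42 to -0.06), 0.42 (0.12 to 0.73) and -0.20 (-0.42 to 0.03) in the same gene order. In that library 1 of 8 measurable collagens, *Col5a2*, was at least 2-fold higher and 0 lower, against 10.8% and 4.48% of all 7721 measurable genes. The collagen median was 0.26 and that of all genes 0.21. When set against the median of all genes, 1 collagen (*Col5a2*) lay at least 2-fold above and 0 at least 2-fold below, against 6.97% and 7.06% of all genes.

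Epithelial cells held less collagen RNA than fibroblasts, mural cells and endothelial cells. Their most abundant collagens were *Col18a1* at 81.3, 104 and 105 CPM, *Col4a2* at 73.2, 97.4 and 47.5 CPM and *Col4a1* at 69.7, 114 and 67.5 CPM, the chains of the sheet on which an epithelium stands. The next in the control were *Col3a1* at 12.2, 41.3 and 36.8 CPM and *Col27a1* at 12.02, 25.9 and 21.2 CPM. In red blood cells *Col18a1* was at 1.20, 0.939 and 1.50 CPM and *Col3a1* at 12.6, 17.99 and 29.7 CPM. By CPM *Col18a1* was thus above red blood cells in every library, whereas *Col3a1* was not above them in the control. Counted per cell the order of *Col3a1* in the control differed. Its 417 UMIs in 2105 epithelial cells were more per cell than its 42 UMIs in 344 red blood cells. Median depths there were 16052 and 8053 UMIs, so whether control *Col3a1* exceeded free RNA is not settled.

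In epithelial cells of the library labelled Tbx1neo2/neo2, 22 of 34 measurable collagens were at least 2-fold higher and 0 at least 2-fold lower, against 16.6% and 4.9% of all 14073 measurable genes. The collagen median was 1.18 and that of all genes 0.40. All 6 measurable cartilage collagens, 5 of 7 fibrillar, 3 of 7 basement membrane, 3 of 4 FACIT, 3 of 4 beaded filament and 2 of 4 transmembrane collagens were among the 22. Relative to the median of all genes, 13 collagens were at least 2-fold above it and 0 at least 2-fold below it, against 7.13% and 10.7% of all genes.

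The highest ratio was that of the transmembrane collagen *Col25a1*, at 1.64, 17.5 and 2.66 CPM (log2 ratio 3.41, 3.02 to 3.84). The collagen IV chains *Col4a6*, at 3.02, 11.3 and 7.44 CPM (log2 ratio 1.91, 1.59 to 2.23), and *Col4a5*, at 10.4, 24.4 and 23.8 CPM (log2 ratio 1.23, 1.05 to 1.42), were also past the fold. Thyroid markers (*Foxe1*, *Nkx2-1*, *Pax8*, *Tg*) summed to 2.34, 204 and 3.76 CPM in epithelial cells, none of the 4 at 0. The 145 of 823 epithelial cells of the library labelled Tbx1neo2/neo2 with at least 2 UMIs of these markers held 82.9% of its *Col25a1*, 72.5% of *Col4a6* and 48.9% of *Col4a5*. In the other 678 cells *Col25a1* was at 3.79 CPM and *Col4a6* at 3.93 CPM. Without cells carrying markers of other tissues, which left 1516 of 2105, 414 of 823 and 1499 of 3879 epithelial cells, the ratio of *Col4a6* was 0.59.

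Among the fibrillar collagens of epithelial cells, with log2 ratios for the library labelled Tbx1neo2/neo2 in parentheses, *Col1a2* was at 8.59, 47.8 and 20.9 CPM (log2 ratio 2.48, 2.30 to 2.66), *Col1a1* at 10.1, 42.3 and 19.5 CPM (log2 ratio 2.07, 1.90 to 2.25), *Col5a2* at 1.96, 9.08 and 5.14 CPM (log2 ratio 2.21, 1.83 to 2.61) and *Col3a1* (log2 ratio 1.76, 1.60 to 1.92). Their UMIs lay in few cells. Cells with at least 5 *Col1a2* UMIs, 14, 46 and 72 in the 3 libraries, held 48.98, 76.3 and 69.4% of the *Col1a1* UMIs of the class, and the rest had *Col1a1* at 5.17, 10.7 and 6.10 CPM. In red blood cells *Col1a1* was at 2.69, 8.76 and 16.4 CPM and *Col1a2* at 3.89, 10.3 and 11.9 CPM. With clusters in place of the marker classes *Col1a1* and *Col5a2* had the opposite sign in epithelial cells of the library labelled Tbx1neo2/neo2. The lowest ratios in that library with at least 100 UMIs were *Col13a1* at -0.10 (-0.40 to 0.20), *Col8a2* at 0.35 (-0.10 to 0.79), *Col18a1* at 0.36 (0.29 to 0.43), *Col4a2* at 0.41 (0.34 to 0.49) and *Col26a1* at 0.50 (0.19 to 0.82).

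In epithelial cells of the Foxn11089/1089 library, 18 of 34 measurable collagens were at least 2-fold higher and 1 at least 2-fold lower, against 16.2% and 8.45% of all 14766 measurable genes. The collagen median was 1.11 and that of all genes 0.27. Of the 18, 5 were cartilage collagens of 6 measurable, 4 fibrillar of 7, 3 FACIT of 5 and 2 basement membrane of 7. The lower gene was *Col4a4*, a collagen IV chain, with 56, 93 and 42 UMIs and a log2 ratio of -1.66 (-2.27 to -1.06). When set against the median of all genes, 16 collagens lay at least 2-fold above and 2 (*Col4a4*, *Col6a1*) at least 2-fold below, against 10.8% and 11.8% of all genes.

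Here the highest ratios were *Col14a1* at 0.469, 1.25 and 10.5 CPM (log2 ratio 4.49, 3.78 to 5.30) and *Col9a1* at 5.39, 17.1 and 67.6 CPM (log2 ratio 3.65, 3.44 to 3.87). *Col23a1* was at 2.94 (2.28 to 3.69), and the other collagen IX chains *Col9a2* and *Col9a3* were at 1.91, 4.44 and 9.09 CPM (log2 ratio 2.25, 1.89 to 2.64) and 2.84, 6.03 and 12.2 CPM (log2 ratio 2.10, 1.80 to 2.42). *Col9a1* in epithelial cells of the Foxn11089/1089 library was above its level in fibroblasts of the same library, 53.2 CPM, and 1.04 CPM was the level in red blood cells. *Col2a1* was at 11.8, 26.8 and 30.1 CPM (log2 ratio 1.36, 1.20 to 1.51) in epithelial cells, against 0, 0.469 and 0.415 CPM in red blood cells. Among collagens with at least 100 UMIs the lowest ratios were *Col6a1* at -0.90 (-1.17 to -0.62), *Col4a2* at -0.62 (-0.70 to -0.55) and *Col17a1*, *Col6a2* and *Col4a1* between -0.18 and -0.05.

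*Col9a1* was spread over many epithelial cells of the Foxn11089/1089 library. At 2000 UMIs per cell 0.838, 3.07 and 12.3% of epithelial cells had a *Col9a1* UMI and 0, 0.134 and 1.97% a *Col14a1* UMI. The counts are of 2028, 749 and 3647 cells, with 77, 74 and 232 shallower cells left out, and red blood cells gave 0, 0.301 and 0.0547% and 0, 0.301 and 0%. Unthinned the shares were 6.79, 31.8 and 47.7% and 0.570, 2.31 and 13.97%, at median depths of 16052, 40441 and 19113 UMIs, and 0, 1.48 and 1.25% and 0, 0.593 and 0% of red blood cells. Epithelial cells of the Foxn11089/1089 library with a *Foxn1* UMI (2593) and without one (1286) had like levels of *Col9a1*, 67.98 and 66.5 CPM, and of *Col2a1*, 30.1 and 30.2 CPM. *Col9a2* was at 5.35 and 21.8 CPM, *Col9a3* at 8.68 and 24.3 CPM, and *Col4a6* at 4.23 and 18.4 CPM, all higher in the cells without a *Foxn1* UMI. A shallow cell can lack a *Foxn1* UMI by sampling alone, and the depth and markers of both sets are not given here. The split is therefore one of detection and not of *Foxn1* expression. The cartilage markers summed to 80.98, 64.8 and 155 CPM in epithelial cells, with *Acan* and *Hapln1* at 0 in the control and none of the 5 at 0 in the other libraries. Nearly all of that sum was *Sox9*, at 80.7, 61.8 and 153 CPM, while *Acan* had 0, 1 and 2 UMIs. Skeletal muscle markers summed to 2.08, 11.00 and 21.8 CPM and glia markers to 10.2, 34.02 and 42.6 CPM in the same cells. The part of these markers in the ratios was not tested. Over the alternatives the ratio of *Col9a1* ran from 2.98 to 3.65, and that of *Col14a1* from 2.87 to 5.41.

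**Figure D4:**
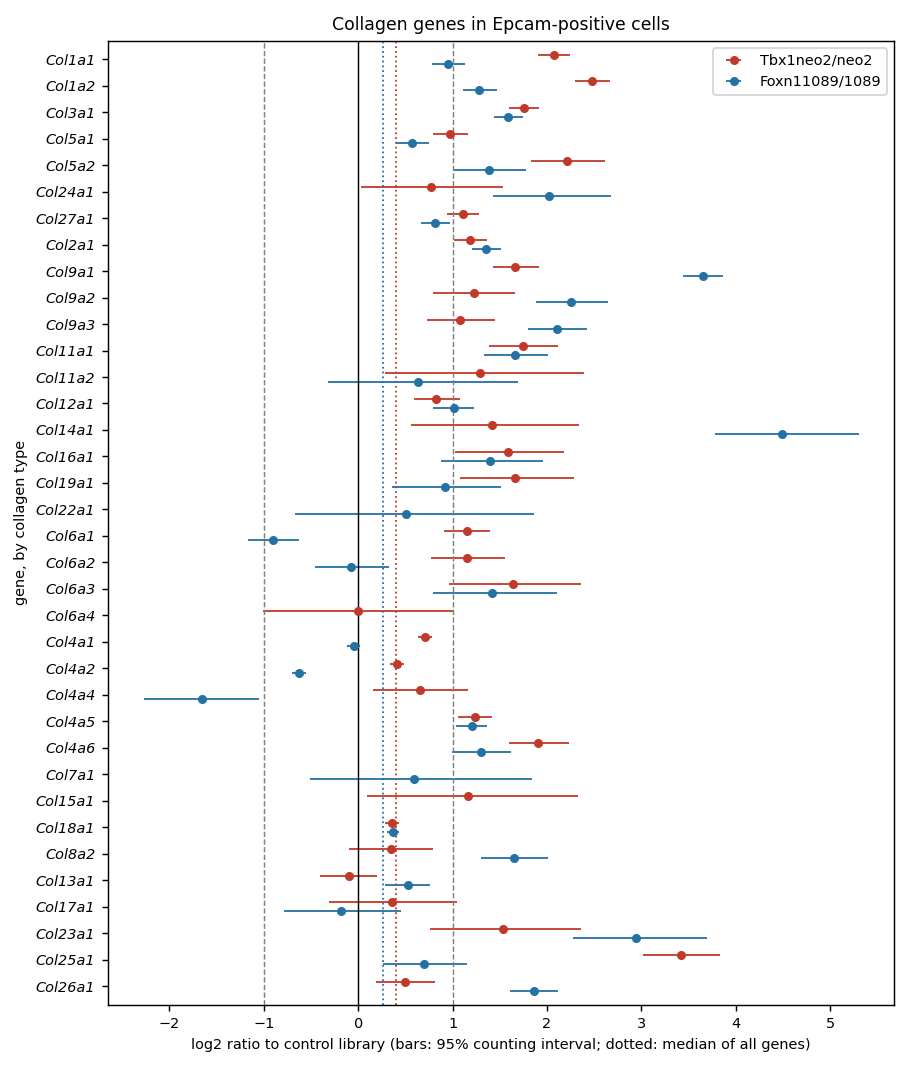
Log2 ratio of each collagen in *Epcam*-positive cells to the control library (horizontal axis) for each mutant library, with 95% counting intervals as bars, the 2-fold limits as dashed lines and the median of all genes as dotted lines. *Col14a1* and *Col9a1* of the Foxn11089/1089 library lie at 4.49 and 3.65, *Col25a1* of the library labelled Tbx1neo2/neo2 at 3.41, and *Col4a4* of the Foxn11089/1089 library lies left of the lower limit; the signs of *Col1a1* and *Col5a2* of the library labelled Tbx1neo2/neo2 and of *Col1a2*, *Col3a1*, *Col5a2* and *Col6a3* of the Foxn11089/1089 library turn when clusters replace the marker class.

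In hematopoietic cells *Col3a1* was at 20.7, 25.01 and 36.4 CPM, against 12.6, 17.99 and 29.7 CPM in red blood cells, and *Col1a1* at 18.4, 17.2 and 11.02 CPM against 2.69, 8.76 and 16.4 CPM. The fibrillar collagens together were at 51.1, 62.7 and 66.9 CPM in hematopoietic cells and at 21.5, 42.1 and 63.0 CPM in red blood cells. By CPM they were thus above red blood cells in the control and the library labelled Tbx1neo2/neo2 and close to them in the Foxn11089/1089 library. The cartilage collagen *Col9a3* was at 14.5, 16.2 and 6.30 CPM in hematopoietic cells and at 0, 0.782 and 0.166 CPM in red blood cells, and *Col18a1* at 12.6, 20.6 and 4.46 CPM against 1.20, 0.939 and 1.50 CPM. Those 2 genes and *Col11a2*, at 1.36, 2.51 and 0.787 CPM against 0, 0 and 0.0415 CPM, were above the level of free RNA in all 3 libraries. In the control, hematopoietic cells held more *Col9a3* than fibroblasts (3.54 CPM).

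With at least 100 UMIs, 5 collagens could be followed in hematopoietic cells. For the library labelled Tbx1neo2/neo2 the log2 ratios were 1.18 (0.81 to 1.55) for *Col1a2*, 0.71 (0.42 to 0.99) for *Col18a1*, 0.28 (0.03 to 0.52) for *Col3a1*, 0.16 (-0.14 to 0.46) for *Col9a3* and -0.10 (-0.38 to 0.18) for *Col1a1*. For the Foxn11089/1089 library they were 1.02 (0.62 to 1.42) for *Col1a2*, 0.82 (0.58 to 1.05) for *Col3a1*, -0.74 (-1.10 to -0.38) for *Col1a1*, -1.20 (-1.68 to -0.75) for *Col9a3* and -1.50 (-2.07 to -0.97) for *Col18a1*. *Col1a1* changed sign with the choice of cells: without likely doublets it was at 1.99 and 1.06, and with clusters at 0.58 and 1.27. *Col18a1* of the Foxn11089/1089 library was at 0.06 with clusters, and for the library labelled Tbx1neo2/neo2 *Col3a1* was at -0.21 without cells carrying markers of other tissues and *Col9a3* at -0.07 with at least 2 *Ptprc* UMIs per cell.

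The ratio between chains of 1 collagen does not depend on the class total. In fibroblasts the control had a ratio of *Col1a1* to *Col1a2* UMIs of 2.46 (2.40 to 2.52), the library labelled Tbx1neo2/neo2 one of 1.14 (1.13 to 1.15) and the Foxn11089/1089 library one of 1.02 (1.01 to 1.04). The ratio was 2.50, 1.03 and 1.04 in the cells of no class, 2.76, 1.14 and 0.816 in hematopoietic cells, 1.25, 0.715 and 0.585 in mural cells and 1.17, 0.885 and 0.931 in epithelial cells, with the control highest in each and the gap smallest in epithelial cells. Red blood cells did not follow this order: they held 9 *Col1a1* and 13 *Col1a2* UMIs in the control and had ratios of 0.848 and 1.38 in the mutant libraries. In endothelial cells of the mutant libraries the ratio was 0.508 and 1.875, and the control had too few UMIs there. As given above, the hematopoietic *Col1a1* ratios to the control changed sign without likely doublets. In epithelial cells much of the *Col1a1* lay in few cells. Whether cells of these classes made the transcripts themselves was not tested. Over the alternatives the ratio ran from 2.35 to 2.56 in control fibroblasts and from 1.02 to 1.17 in both mutant libraries. Median mitochondrial shares of 2.59%, 5.80% and 5.03% of UMIs per cell also set the control library apart, and their part in this ratio was not tested.

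The pairs of collagens IV and VI differed less between libraries in fibroblasts. *Col4a1* to *Col4a2* was 2.02, 2.10 and 1.94 in fibroblasts and 1.99, 2.06 and 2.52 in endothelial cells, and lower, 0.952, 1.17 and 1.42, in epithelial cells. *Col6a1* to *Col6a2* was 1.31, 1.33 and 1.27 in fibroblasts and 2.57, 2.55 and 1.45 in epithelial cells, where it was lowest in the Foxn11089/1089 library. *Col6a3* to *Col6a1* in fibroblasts was 1.02, 0.731 and 1.14. *Col3a1* to *Col1a1* was 1.01, 1.08 and 2.30 in fibroblasts, with the higher value in the Foxn11089/1089 library. *Col5a2* to *Col5a1* differed most between classes, at 1.66, 1.74 and 2.02 in fibroblasts and 0.193, 0.453 and 0.339 in epithelial cells, and it was 38.8 (27.6 to 56.3) in endothelial cells of the library labelled Tbx1neo2/neo2 and 8.31 (4.66 to 16.1) in those of the Foxn11089/1089 library.

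**Figure D5:**
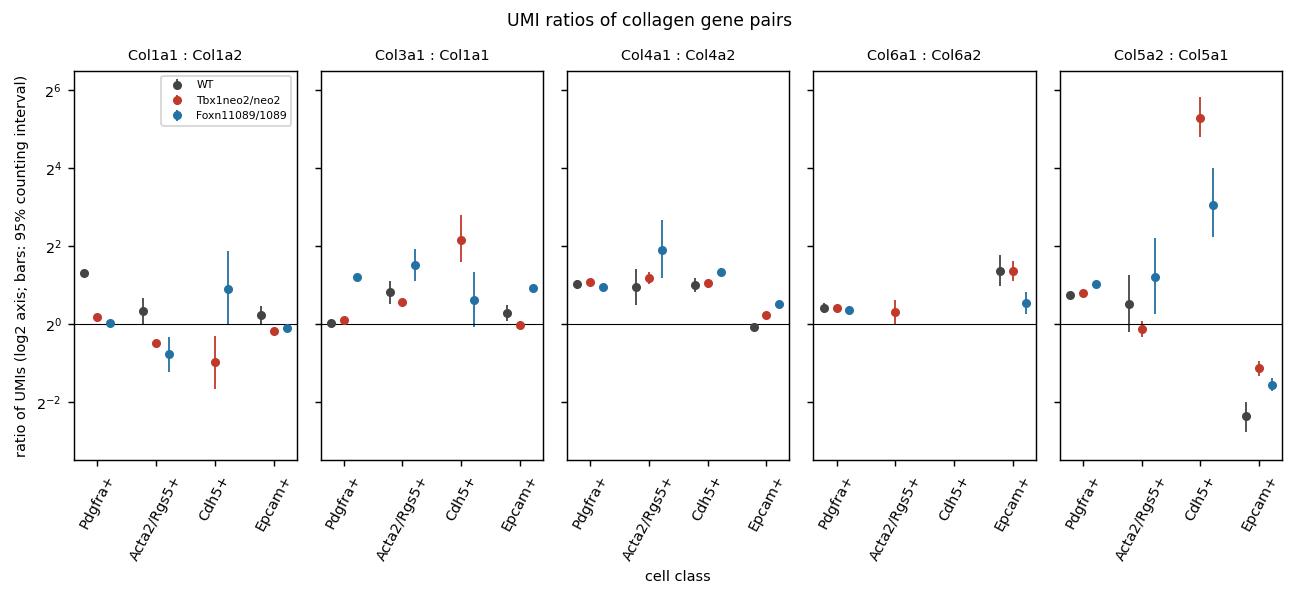
Ratio of UMIs of collagen gene pairs (vertical axis, log2 spacing) in 4 cell classes, with a point for each library and 95% counting intervals as bars; points with too few UMIs are not drawn. *Col1a1* to *Col1a2* in *Pdgfra*+ cells is 2.46 in the control and near 1 in both mutant libraries, *Col4a1* to *Col4a2* lies near 2 in fibroblasts and endothelial cells, and *Col5a2* to *Col5a1* reaches 38.8 in *Cdh5*+ cells of the library labelled Tbx1neo2/neo2.

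A list of 33 genes whose products modify, fold, secrete, cleave, crosslink or bind collagen gave the setting. In fibroblasts of the library labelled Tbx1neo2/neo2, 9 of 31 measurable genes of the list were at least 2-fold higher and 0 lower, against the 18.4% and 3.67% of all genes. In those of the Foxn11089/1089 library 0 of 28 were higher and 1 lower, against 6.21% and 4.18% of all genes. *Lox*, which crosslinks collagen outside the cell, was at 17.4 and 77.8 CPM in the control and the library labelled Tbx1neo2/neo2 (log2 ratio 2.16, 1.94 to 2.40), *Pcolce2*, which helps to cleave the collagen end, at 1.04 and 13.9 CPM (log2 ratio 3.74, 2.84 to 4.81), and *Sparc*, a collagen-binding protein, at 545 and 1303 CPM (log2 ratio 1.26, 1.21 to 1.30). The other 6 were *Loxl2*, *Loxl4*, *P4ha3* and the collagen receptor chains *Itga1*, *Itga10* and *Itga11*. *Serpinh1*, the chaperone of collagen in the endoplasmic reticulum, was at 1336 and 1378 CPM in the control and the library labelled Tbx1neo2/neo2 and at 1083 CPM in the Foxn11089/1089 library. The lower gene of the Foxn11089/1089 library was *Pcolce*, at 220.3 and 94.5 CPM in the control and this library (log2 ratio -1.22, -1.30 to -1.14).

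In mural cells 8 of 24 measurable genes of the list were at least 2-fold higher in the library labelled Tbx1neo2/neo2, with *Lox* at 1.68 (0.68 to 2.90), and none lower, against the 24.6% and 3.98% of all genes, and 2 of 9 were higher and 1 lower in the Foxn11089/1089 library, against 10.9% and 9.15%. In endothelial cells 7 of 20 were higher in the library labelled Tbx1neo2/neo2 and none lower, against 25.6% and 4.71% of all genes, and 1 of 17 was higher and 1 lower in the Foxn11089/1089 library, against 10.8% and 4.48%. *Lox* was at 0 UMIs in control endothelial cells and at 114 CPM in the library labelled Tbx1neo2/neo2, and *P4ha3*, a chain of the enzyme that hydroxylates proline in collagen, was at 2.70 and 75.3 CPM in the control and that library (log2 ratio 4.80, 2.93 to 7.85). In epithelial cells 5 of 29 were higher in the library labelled Tbx1neo2/neo2 and none lower, against 16.6% and 4.9% of all genes, and 3 of 29 were higher and 2 lower in the Foxn11089/1089 library, against 16.2% and 8.45%, so the share of higher genes was near that of all genes in the library labelled Tbx1neo2/neo2 and below it in the Foxn11089/1089 library. *Sparc* was among the higher genes in both, at 62.3, 222 and 284 CPM, and the crosslinking enzyme *Loxl1* was at log2 ratios of 2.01 (1.36 to 2.72) and 2.02 (1.41 to 2.69). The lower genes in the Foxn11089/1089 library were *Loxl2* at -1.36 (-1.50 to -1.22) and *Pcolce* at -1.49 (-1.68 to -1.30).

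Several collagens were too rare to follow. Over the kept cells of the 3 libraries together, *Col6a5* had 21, *Col10a1* 8 and *Col28a1* 27 UMIs, all of the last in the library labelled Tbx1neo2/neo2, and the other 41 genes had at least 30. *Col10a1*, the collagen of cartilage cells that enlarge before bone forms, was thus almost absent. In the classes of the control library *Col4a3*, *Col6a4*, *Col7a1*, *Col8a1*, *Col20a1* and *Col22a1* also stayed under 30 UMIs. Of the epithelial transmembrane collagen *Col17a1*, 34, 46 and 71 UMIs were counted in epithelial cells (0.997, 1.28 and 0.879 CPM), and *Col19a1* was at 0.938, 2.97 and 1.77 CPM in them.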

How the data were processed

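Per the labels, thymic lobes were dissociated with trypsin and sequenced by a 3′ droplet method. The authors deposited raw UMI counts per gene and cell, made with Cell Ranger 3.0.0 on mm10 per their processing notes. Their normalized values and clusters were not used here. Barcodes numbered 6410, 5759 and 12447, and 478, 243 and 675 with under 200 genes or at least 20% mitochondrial UMIs were left out. Total UMIs of kept cells were 81885273, 136517727 and 202825405. Marker classes took cells with under 20% hemoglobin UMIs. Fibroblasts had *Pdgfra*, mural cells *Acta2* and *Rgs5* at 5 or more per 10000 UMIs together, and the others *Cdh5*, *Epcam* or *Ptprc*, each without the other markers. Deposited counts were summed per class and library and divided by the class total (CPM), with exact Poisson intervals. Ratios to the control have exact conditional binomial intervals, and past the fold means a log2 ratio of at least 1 in size, for genes with at least 30 UMIs in the compared libraries together. Doublets were left in and removed in an alternative (0.8% per 1000 barcodes). Computation used Python 3.11.15, numpy 2.4.6, scipy 1.17.1, pandas 2.3.3 and scanpy 1.11.5, and the ratio code was checked on simulated counts. The text names the 10 collagens highest in control fibroblasts, the 5 highest in control cells of each other class, in each class and mutant library the 5 largest and 5 smallest ratios among genes with at least 100 UMIs, and the chains of collagens I, III, IV, V and VI, with processing genes by the same rule of size. Shares and cell splits inside a class were added after values were seen. The members and lists were chosen with earlier results of these data known.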

Additional observations from a re-analysis of the deposited data

Results flagged for a closer look

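*Col20a1*, a FACIT collagen, was found mostly outside the cell classes. In cells of no class it was at 0.925 CPM in the library labelled Tbx1neo2/neo2 and 0.345 CPM in the Foxn11089/1089 library, above 0.170 CPM in the control. It had 4, 58 and 30 UMIs over all kept cells, of which 3, 44 and 18 were in cells of no class. Its highest level in any class was 0.104, 0.405 and 0.149 CPM. It is given here because no ratio of this gene to the control was formed in the report.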

How the results depend on the processing

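No paired analysis was possible because each genotype has 1 library, and no library could be left out for the same reason. Counts of collagens past 2-fold, higher and lower, follow out of those measurable. The shares of all genes higher and lower stand in parentheses, and the cause was not tested where the counts moved. In fibroblasts of the Foxn11089/1089 library 1 of 34 was higher and 1 lower (6.21% and 4.18%). With at least 2 *Pdgfra* UMIs per cell the counts were 1 and 3 of 32 (6.53% and 3.74%). Relative to the median of all genes they were 1 and 4 of 34 (3.5% and 6.4%). Without a gene minimum they were 2 and 4 of 40 (7.04% and 9.88%). With a minimum of 100 UMIs they were 0 and 1 of 28 (4.9% and 3.0%). Without cells carrying other-tissue markers they were 0 and 1 of 32 (6.29% and 3.89%). In mural cells of the library labelled Tbx1neo2/neo2 the 8 became 5 with that minimum and 4 without other-tissue cells. In mural cells of the Foxn11089/1089 library 0 of 7 were higher and 0 lower (10.9% and 9.15%). Without a minimum the counts were 6 and 1 of 20 (20.3% and 12.2%). With *Pdgfra*-positive cells kept they were 3 and 0 of 16 (13.3% and 3.14%). With *Acta2* and *Rgs5* at 10 per 10000 UMIs they were 1 and 1 of 6 (10.2% and 9.91%). In endothelial cells of the library labelled Tbx1neo2/neo2 8 of 14 were higher and 0 lower (25.6% and 4.71%). With a minimum of 100 UMIs the counts were 3 and 0 of 7 (19.3% and 5.37%). With clusters in place of marker classes they were 18 and 0 of 22 (26.6% and 4.17%). In those of the Foxn11089/1089 library 1 of 8 was higher and 0 lower (10.8% and 4.48%). Without a minimum the counts were 2 and 3 of 19 (12.9% and 10.1%). With clusters they were 9 and 0 of 17 (15.8% and 4.37%). In epithelial cells of the library labelled Tbx1neo2/neo2 22 of 34 were higher and 0 lower (16.6% and 4.9%). Relative to the median of all genes the counts were 13 and 0 of 34 (7.13% and 10.7%). Without other-tissue cells they were 14 and 0 of 29 (14.4% and 5.01%). With clusters they were 8 and 1 of 34 (9.12% and 4.88%). In epithelial cells of the Foxn11089/1089 library 18 of 34 were higher and 1 lower (16.2% and 8.45%). With clusters the counts were 15 and 4 of 35 (15.9% and 8.29%).

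With clusters, which gave no mural cells in the control, the log2 ratios in epithelial cells of the library labelled Tbx1neo2/neo2 turned to -0.63 for *Col1a1* and -0.12 for *Col5a2*. In those of the Foxn11089/1089 library they turned to -0.47 for *Col1a2*, -0.21 for *Col3a1*, -0.58 for *Col5a2* and -0.18 for *Col6a3*. In hematopoietic cells *Col4a1* of the library labelled Tbx1neo2/neo2 turned from -1.07 to 0.29 with clusters and 1.20 without doublets, *Col6a2* to -0.64 without other-tissue cells, and *Col18a1* of the Foxn11089/1089 library to 0.058 with clusters. Of the 49 ratios past 2-fold among 141 named, 46 stayed past it without doublets, 43 with cells weighted equally and 36 without other-tissue cells, and 28 of the 43 that clusters could give. A filter at 2000 UMIs per cell kept all 49. The ratio of *Col1a1* to *Col1a2* in control fibroblasts moved between 2.35 and 2.56.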

Other observations

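In endothelial cells of the library labelled Tbx1neo2/neo2, *Col5a2* was concentrated in 53 of 92 cells with at least 5 *Col5a2* UMIs, against 0 such cells in the control and 4 in the Foxn11089/1089 library. The genes that follow were chosen after their values were seen, and the split rests on *Col5a2* itself, so the values describe these cells and carry no test. In the 53 cells elastin (*Eln*) was at 6489.6 CPM, against 52.3 CPM in the other 39. *Fbln5*, which binds elastin, was at 4413 and 31.6 CPM and *Mgp*, an inhibitor of calcification, at 2832 and 45.4 CPM. Genes of arterial endothelium were higher in the same 53 cells: *Gja5* was at 217 and 0.987 CPM, *Gja4* at 809 and 67.1 CPM and the Notch ligand *Jag1* at 468 and 11.8 CPM. *Fabp4*, a gene of small vessels, was lower, at 132 and 837 CPM. The endothelial genes *Cdh5* (920.1 and 689 CPM) and *Pecam1* (915 and 415 CPM) were present in both.

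The collagens of these 2 sets of cells also differed. *Col8a1* was at 37.7 CPM in the 53 cells and without a UMI in the other 39, and *Col9a1* was at 45.9 and 0.987 CPM. *Col4a1* was at 577 and 996 CPM and *Col15a1* at 61.02 and 262 CPM, both lower in the 53 cells, while *Col18a1* was at 618 and 444 CPM. *Lox* was at 184 and 12.8 CPM.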
